A study of Mus musculus with 180 samples.

Results

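The accessible regions described here carried P300 and POU5F1 but no TRIM28 in mouse embryonic stem cells (ESCs). They were chosen as regions of the ESC ATAC table that overlapped, by 1 bp or more, at least 1 region of the P300 table and at least 1 of the POU5F1 table, and none of the TRIM28 table. This rule held for 5196 of 112226 accessible regions (4.63%), which are called members below. They made up 17.6% of the 29558 accessible regions with both P300 and POU5F1, since the other 24362 also overlapped a TRIM28 region. The study set naive ESCs from B6D2F1/J, D2 (DBA/2J) and B6 (C57BL/6J) mice beside ESCs of the BXD panel, a set of recombinant inbred lines descended from B6 and D2. It also turned the D2, B6 and BXD lines into formative epiblast-like cells (EpiLCs). ATAC-seq, which counts transposase insertions in open chromatin, was measured in 3 D2, 3 B6 and 33 BXD lines as EpiLCs and in 3 F1, 3 D2, 3 B6 and 33 BXD lines as ESCs, with 100000 cells per reaction. P300 and POU5F1 ChIP-seq came from 2 D2 and 2 B6 ESC lines each, each ChIP using far more cells than an ATAC reaction. The sample titles name no transgene or drug treatment. Each library is 1 cell line, so a p-value weighs a difference against how much lines of 1 strain vary. The labels do not say which animals the lines came from.

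POU5F1 (OCT4) is the POU-domain transcription factor that keeps ESCs pluripotent, and it often binds DNA next to SOX2 at enhancers. P300 is a histone acetyltransferase that is recruited to active enhancers. TRIM28 (KAP1) is a corepressor that KRAB zinc finger proteins bring to chromatin, often at transposable elements, and its absence set these regions apart from the larger class with all 3 factors. ESCs held in the naive state rely on a network that includes Nanog, Esrrb and Klf factors, which recedes when cells become formative while POU5F1 stays on and is bound at other sites.

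The central 300 bp of 6 members are printed from the mm10 plus strand, as RefSeq gives it: the 2 with the largest rise and the 2 with the largest fall in D2 ESCs among the named members that held a searched motif and were at most 20% repeated, then the members near the pluripotency genes Nanog and Zfp281. Capitals mark each match, on either strand, to the octamer ATGCAAAT (the POU-factor motif), to CATTGT (the core of SOX-factor sites) and to TCAAGGTCA (the ESRRB type).
Parp2 region, chr14:50809633-50809932: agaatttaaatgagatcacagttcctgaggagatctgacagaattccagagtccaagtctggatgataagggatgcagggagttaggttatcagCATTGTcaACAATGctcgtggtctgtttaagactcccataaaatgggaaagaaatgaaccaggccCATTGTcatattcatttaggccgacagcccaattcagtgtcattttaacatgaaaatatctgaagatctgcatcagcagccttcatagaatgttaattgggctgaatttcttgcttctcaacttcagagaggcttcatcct
Inpp4a region, chr1:37295555-37295854: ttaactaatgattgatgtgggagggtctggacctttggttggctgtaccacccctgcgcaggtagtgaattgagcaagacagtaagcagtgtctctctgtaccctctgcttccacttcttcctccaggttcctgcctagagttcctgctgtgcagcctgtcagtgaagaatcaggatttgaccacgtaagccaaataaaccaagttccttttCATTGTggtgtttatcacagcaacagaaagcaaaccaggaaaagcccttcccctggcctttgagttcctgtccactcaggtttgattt
Gm10031 region, chr1:156512775-156513074: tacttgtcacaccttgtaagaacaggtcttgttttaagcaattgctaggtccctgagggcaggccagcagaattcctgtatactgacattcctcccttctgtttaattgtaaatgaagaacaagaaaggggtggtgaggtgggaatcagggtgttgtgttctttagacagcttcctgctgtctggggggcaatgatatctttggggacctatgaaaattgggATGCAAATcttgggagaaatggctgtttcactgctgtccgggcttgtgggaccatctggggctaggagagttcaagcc
Dlgap4 region, chr2:156690788-156691087: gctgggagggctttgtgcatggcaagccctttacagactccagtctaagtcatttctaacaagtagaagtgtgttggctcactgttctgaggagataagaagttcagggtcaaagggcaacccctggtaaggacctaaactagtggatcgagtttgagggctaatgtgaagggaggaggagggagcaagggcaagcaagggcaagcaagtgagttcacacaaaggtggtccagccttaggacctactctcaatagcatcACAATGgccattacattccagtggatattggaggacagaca
Nanog region, chr6:122689861-122690160: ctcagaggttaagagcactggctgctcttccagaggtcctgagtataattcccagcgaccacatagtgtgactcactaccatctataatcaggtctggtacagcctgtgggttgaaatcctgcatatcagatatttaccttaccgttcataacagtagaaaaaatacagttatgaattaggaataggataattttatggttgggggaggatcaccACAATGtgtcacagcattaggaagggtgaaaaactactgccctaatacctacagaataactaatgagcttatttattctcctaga
Zfp281 region, chr1:136646214-136646513: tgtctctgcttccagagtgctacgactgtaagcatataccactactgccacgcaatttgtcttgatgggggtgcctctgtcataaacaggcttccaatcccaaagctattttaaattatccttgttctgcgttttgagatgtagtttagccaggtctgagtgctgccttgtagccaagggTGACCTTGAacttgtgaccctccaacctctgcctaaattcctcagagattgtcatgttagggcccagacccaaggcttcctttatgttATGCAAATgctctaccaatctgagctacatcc
The member near Parp2 held 3 SOX cores, those near Inpp4a, Dlgap4 and Nanog 1 each, and the member near Gm10031 held 1 octamer. The member near Zfp281 held an octamer and an ESRRB-type match.

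The recovered number of reads in EpiLC regions was 17195098 to 24346475 in the D2 and B6 lines and 2244456 to 15453136 in the BXD lines, where the lowest was line BXD69. In ESCs it was 16277662 to 23095959 in D2 and B6 and 8509843 to 18545493 in BXD. RNA of marker genes followed the labelled states. Nanog RNA was 17.6 to 22.9 in D2 and 22.7 to 31.01 in B6 EpiLCs, against 773.8 to 874.9 in D2 and 657.1 to 725.3 in B6 ESCs, and Pou3f1, which marks formative cells, was 255.3 to 291.0 in D2 and 256.5 to 326.7 in B6 EpiLCs, against 4.88 to 5.804 in D2 and 3.95 to 6.58 in B6 ESCs, all in the tables' normalized RNA units. All 4 fibroblast feeder markers searched (Col1a1, Col1a2, Thy1 and Dcn) were in the RNA tables, and their summed level was 53.3 to 88.5 in D2, 37.6 to 50.03 in B6 and 18.9 to 311.6 in BXD EpiLCs. In ESCs the sum was 820 to 1132 in D2, 718 to 974 in B6 and 279.8 to 3825 in BXD lines. Dcn alone went the other way. It was 9.68 to 10.77 in D2 and 7.46 to 8.67 in B6 EpiLCs, against 2.21 to 3.21 in D2 and 2.81 to 3.38 in B6 ESCs. The part of feeder cells in the differences between states and between lines was not tested.

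The members were mostly distal. Of them 55.8% lay in introns and 32.3% between genes, and 6.10% lay within 1 kb of a transcription start, against 39.9%, 37.6% and 17.4% of all accessible regions. The class that also carried TRIM28 had 32.5% within 1 kb of a start. The median width was 960 bp in members and 938 bp over all regions, and the members had 3564 distinct nearest genes. Their median ATAC signal, in reads per region scaled by library and averaged over 39 ESC libraries, was 4.91, against 4.43 over all regions. The median P300 signal was 14.97 at members and 23.5 in the class with TRIM28, and the median POU5F1 signal was 16.8 and 23.6. Within the central 300 bp the octamer occurred in 4.20% of members and 3.12% of all regions, the SOX core in 20.7% and 16.5%, and the ESRRB-type motif in 2.93% and 1.42%. The SOX core occurred in 18.9% of regions without any of the 3 factors, 14.5% of the class with all 3 and 14.3% of regions with TRIM28 only. Matches of different motifs were counted separately, also where they shared bases.

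D2 ESCs were less open than B6 ESCs at many of these regions. Of the 5196 members, all of which were tested, 932 were higher in D2 and 1811 were lower (limma with Benjamini-Hochberg adjustment over all regions, adjusted p under 0.05). Together 52.8% of members were called, against 46.9% of all 112226 regions. The direction differed more than the share: 34.9% of members were lower in D2, against 24.7% of all regions, and 17.9% were higher, against 22.2%. The median difference, D2 minus B6 on the log2 scale of signal plus 0.1, was -0.12 in members and -0.004 over all regions. This scale understates the change of regions with low signal. Differences beyond 2-fold were no more frequent than elsewhere, with 162 higher and 291 lower members (8.72%, against 8.75% of all regions). In 2937 members (56.5%) the 3 D2 and the 3 B6 lines did not overlap, against 55% of all regions. Among the 24362 regions that also carried TRIM28, 6909 were higher and 5555 lower, and among the 40818 regions without any of the 3 factors, 7290 were higher and 9713 lower. Members without an EpiLC region had 568 higher and 789 lower calls, and members with one had 364 and 1022. Quantile normalization, which shifts the whole distribution, left 1075 higher and 1626 lower members and a member median of -0.07. Over all 112226 regions it gave 27019 higher and 25766 lower and a median of 0.02, so the background moved as well.

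The strain difference was visible in each library. The members' median log2 signal stood above the median of all regions by 0.12 to 0.17 in the 3 D2 lines and by 0.22 to 0.25 in the 3 B6 lines, so these lines did not overlap. F1 lines stood at 0.27 to 0.32, above both parents. BXD lines ran from -0.10 in BXD99 to 0.27 in BXD64. In EpiLCs the margin over the 1928 members with a matched EpiLC region was 0.07 to 0.09 in D2, 0.04 to 0.08 in B6 and -0.11 to 0.10 in BXD lines, and the D2 and B6 lines overlapped.

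**Figure D1:**
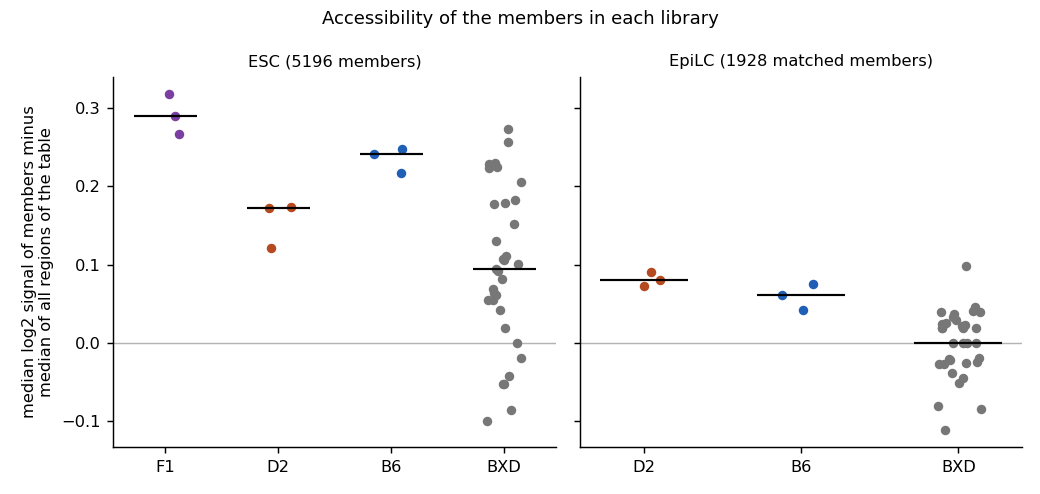
Median log2 ATAC signal of the members minus the median of all regions of the same table (vertical axis) for every ESC library (left, 5196 members) and EpiLC library (right, 1928 matched members), grouped by strain; each point is 1 cell line and each bar the group median. In ESCs the 3 F1 lines sit at 0.27 to 0.32, the 3 D2 lines at 0.12 to 0.17 and the 3 B6 lines at 0.22 to 0.25, with the 33 BXD lines spread from -0.10 to 0.27.

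The members with the largest rises in D2 lay near genes of varied kinds. In the sentences that follow, values are ATAC signals of D2 lines D29, D55 and DAC203 and of B6 lines B41, B44 and B51, in that order. The member at chr9:32554413-32555304, 13.3 kb upstream of Fli1 (an ETS-family transcription factor) and between genes, had 6.97, 7.19 and 6.73 in D2 and 0.862, 0.625 and 0.628 in B6 ESCs. Every D2 line was several times above every B6 line, and the log2 difference was 3.15 ± 0.16 (SE, adjusted p = 2.24e-11). The member in an intron 1.94 kb downstream of the start of Parp2 (a poly(ADP-ribose) polymerase of DNA repair), whose SOX cores are printed above, had 4.63, 4.88 and 3.59 in D2 and 0.456, 0.268 and 0.349 in B6 ESCs, a difference of 3.29 ± 0.23 (SE, adjusted p = 9.73e-10). Near Inpp4a (an inositol polyphosphate 4-phosphatase), 4.19 kb upstream of its start, D2 lines had 4.53, 3.99 and 4.24 and B6 lines 0.456, 0.268 and 0.419, with a difference of 3.20 ± 0.22 (SE, adjusted p = 9.70e-10). Again no B6 line reached the D2 lines. The member between genes 50.4 kb from Arhgap11a had 12.96, 10.96 and 10.8 in D2 and 0.913, 0.759 and 1.19 in B6 ESCs, and the one in an intron of Slc24a3 (a sodium, potassium and calcium exchanger) had 6.14, 5.77 and 5.73 and 0.811, 0.447 and 0.558. Their differences were 3.49 and 3.12. Among the 8 largest rises, the members near Gm10772, Dynlt1c and Synpo2 hold 96.4%, 100% and 34.4% of 32-base stretches that recur in mm10. Their log2 differences of 4.93, 3.14 and 3.86 are uncertain, because reads of near-identical copies may be shared.

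The members lowest in D2 had the opposite pattern, and at each of the 8 every D2 line was under 2 and every B6 line above 3. The member at chr1:156512471-156513378, 11.1 kb upstream of the predicted gene Gm10031, had 1.27, 1.11 and 0.962 in D2 and 11.1, 11.9 and 10.7 in B6 ESCs. This was the largest fall, -3.23 ± 0.13 (SE, adjusted p = 1.0e-12), and the D2 lines lay far below every B6 line. Near Dlgap4 (a scaffold protein of the postsynaptic density), D2 lines had 0.975, 0.754 and 0.831 and B6 lines 7.55, 6.92 and 7.36, with a difference of -2.96 ± 0.15 (SE, adjusted p = 1.47e-11). The member between genes near Cdc42ep3 (an effector of the GTPase CDC42) had 0.877, 0.799 and 1.05 in D2 and 7.301, 8.75 and 8.48 in B6 ESCs. In an intron of Atg7, the E1-like enzyme of autophagy, D2 lines had 0.975, 1.11 and 0.874 and B6 lines 8.16, 8.04 and 7.33. An intron of Hdac4, a class IIa histone deacetylase, held a member with 1.46, 1.11 and 1.14 in D2 and 8.77, 8.53 and 8.48 in B6 ESCs. Their differences were -3.04, -2.87 and -2.71. The other falls of rank 1 to 8 were near Mn1 (a transcriptional coregulator), Camta1 (a calmodulin-binding transcription activator) and Slc24a2, at -3.01, -2.63 and -2.50. The last holds 35.4% repeated stretches and is uncertain.

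**Figure D2:**
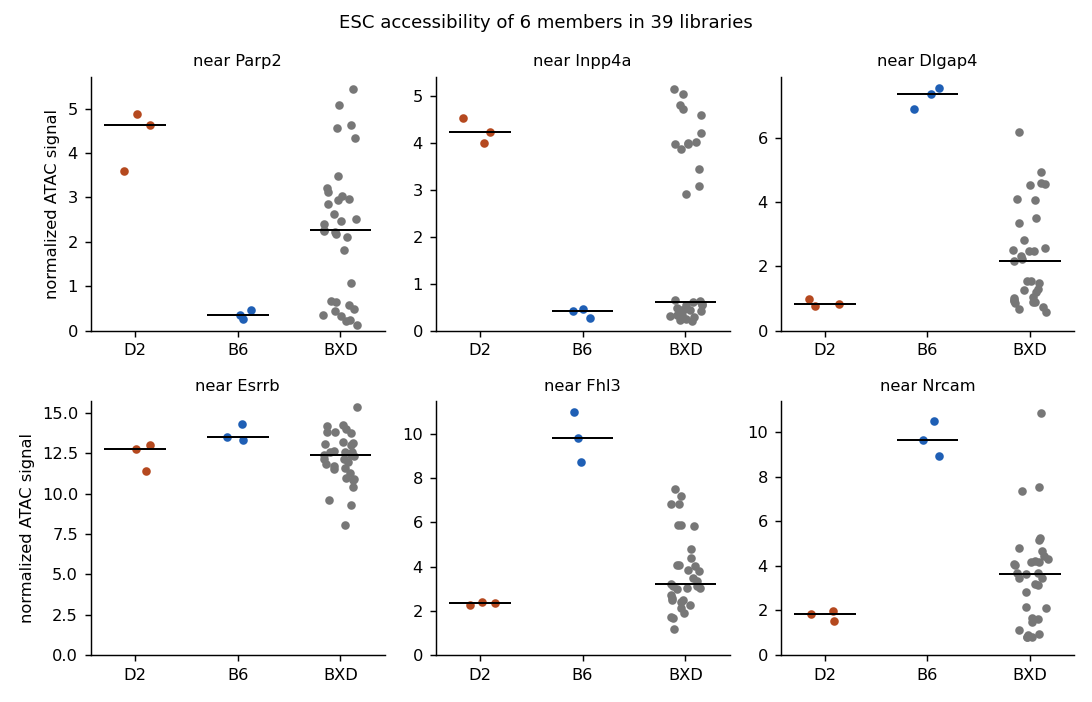
Normalized ESC ATAC signal (vertical axis, linear, from 0) of 6 members in the 3 D2, 3 B6 and 33 BXD libraries; each point is 1 cell line and each bar the group median. Members near Parp2 and Inpp4a are high in every D2 line and those near Dlgap4, Fhl3 and Nrcam in every B6 line, while the member near Esrrb has 13.01, 12.8 and 11.4 in D2 and 13.3, 14.3 and 13.5 in B6 lines.

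P300 and POU5F1 signal moved with accessibility. Across the 5196 members the D2 minus B6 difference in ATAC had a Pearson's r of 0.70 with the difference in P300 and of 0.72 with that in POU5F1 (Spearman's rho 0.68 and 0.67), and the 2 factors' differences had an r of 0.72 with each other (rho 0.67). The class with TRIM28 had r of 0.70, 0.67 and 0.76 in the same order (rho 0.58, 0.52 and 0.63). These are descriptions across regions, which are not replicates, and the same cell lines gave all 3 measures. Of the 5018 P300 regions of members 232 were higher in D2 and 318 lower, that is 4.62% and 6.34%, against 6.17% and 5.16% of all P300 regions (11.3% called in all). Beyond 2-fold 95 were higher and 104 lower, 3.97% against 4.13%. Of the 5028 POU5F1 regions 331 were higher and 222 lower, that is 6.58% and 4.42%, against 6.48% and 4.36% of all POU5F1 regions (10.8% in all). Beyond 2-fold 111 were higher and 58 lower, 3.36% against 3.16%. So the share of members with a called factor difference was near the background, and 377 members shared a P300 or POU5F1 region with another member. Among the 162 members more than 2-fold higher in D2 ATAC, P300 was higher at 35.8% and POU5F1 at 64.2%, and neither was called lower at any of them. Among the 291 more than 2-fold lower, P300 was lower at 51.9% and POU5F1 at 40.2%, and neither was called higher. Over all called members the opposite direction was called at 4 for P300 (2 higher, 2 lower in ATAC) and at 9 for POU5F1 (2 and 7). Such joint shares were not computed for other regions, so they are not read as particular to the members. With 2 lines per strain the counts of factor calls depend on single lines. Without D2 line D55, P300 calls were 630 higher and 724 lower, without D2 line D29 they were 120 and 271, without B6 line B41 80 and 42, and without B6 line B51 62 and 37. POU5F1 calls were 56 higher and 111 lower without D55, and 132 and 90 without D29.

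**Figure D3:**
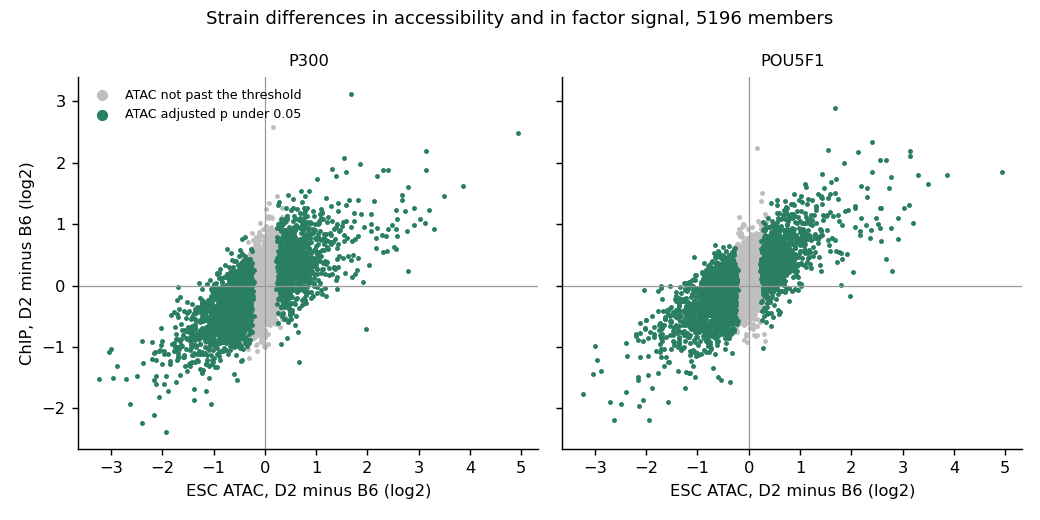
D2 minus B6 log2 difference in ESC ATAC (horizontal axis) against that in P300 (left) and POU5F1 ChIP (right) for the 5196 members; green points passed the ATAC threshold. The points run from lower left to upper right, with an r of 0.70 for P300 and 0.72 for POU5F1.

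In all 3 measures 109 members (2.10%) were higher in D2 and 113 (2.17%) were lower, against 4.76% and 1.84% of all 29558 accessible regions with P300 and POU5F1. Values here are P300 or POU5F1 signals of D29 and D55 for D2 and of B41 and B51 for B6. The member near Fli1 had P300 signals of 33.1 and 27.5 in D2 and 5.499 and 6.17 in B6 ESCs, and POU5F1 signals of 27.99 and 32.1 and 8.32 and 3.997. Both factors followed its ATAC signal, with log2 differences of 2.19 and 2.18. In an intron of Nrcam, a neuronal cell adhesion molecule, P300 was 4.45 and 2.97 in D2 and 20.6 and 21.1 in B6, POU5F1 was 5.28 and 7.09 and 19.2 and 27.1, and the differences were -2.23 and -1.74. Its ATAC signal was 1.85, 1.95 and 1.53 in D2 and 8.92, 10.5 and 9.63 in B6 ESCs. The member 151.0 kb from Rergl, a RAS-like gene, had P300 of 3.82 and 2.43 in D2 and 20.9 and 19.5 in B6, and the one in an intron of Camta1 had POU5F1 of 6.07 and 10.2 in D2 and 40.5 and 39.1 in B6. At all 4, no D2 value fell within the B6 values. The octamer-bearing member near Gm10031 had POU5F1 of 11.1 and 9.65 in D2 and 38.7 and 36.4 in B6. Near Tmem47, P300 reached 70.2 and 41.02 in D2 against 5.77 and 4.87 in B6, but 31.7% of that member is repeated. Such adjusted p-values with 2 lines per strain rest on a spread pooled over regions.

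The 4 lists of 61 pluripotency and signalling genes had 39 members within 50 kb of the transcription starts of 26 genes. Of these members 5 (12.8%) were higher in D2 ESCs, 15 (38.5%) were lower and 19 did not pass the test, beside the 17.9% and 34.9% of all members and 22.2% and 24.7% of all regions given above, with a median difference of -0.20, beside -0.12 over all members. The lists were chosen with results of these data known. No member lay within 50 kb of Pou5f1, Sox2 or Klf4.

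Among the 8 members near core pluripotency genes 2 were higher, 2 lower and 4 not called. The member 17.5 kb upstream of Nanog, the homeobox factor whose central sequence is printed above, had 11.6, 11.1 and 10.7 in D2 and 9.43, 8.98 and 7.92 in B6 ESCs. The lines did not overlap, and the difference was 0.34 ± 0.09 (SE, adjusted p = 0.00449), while P300 and POU5F1 differences of 0.47 and 0.44 did not pass. A member 2.40 kb upstream of Sall4, a zinc finger factor, rose by 0.38 with P300 higher by 0.77 (adjusted p = 0.00333), although D2 lines at 9.26, 9.05 and 10.01 and B6 lines at 9.03, 7.32 and 5.69 came close. A further member 13.2 kb upstream of Sall4 averaged 5.06 ± 0.265 in D2 and 6.19 ± 0.455 in B6 ESCs (SD, n = 3 each) and fell by 0.28 (adjusted p = 0.0386), and so did one 28.6 kb from Utf1, a pluripotency cofactor, with 9.97 ± 0.294 in D2 and 11.8 ± 0.662 in B6 ESCs and a fall by 0.24 (adjusted p = 0.0246). Near Zfp281, a zinc finger factor, D2 lines had 3.02, 3.06 and 2.58 and B6 lines 3.25, 3.13 and 3.63, and no test passed.

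Near naive factors 1 of 9 members was higher, 3 were lower and 5 were not called. Esrrb, an orphan nuclear receptor of the naive network, had 3 members in its introns. The strongest, at chr12:86465948-86467058, had 13.01, 12.8 and 11.4 in D2 and 13.3, 14.3 and 13.5 in B6 ESCs, a difference of -0.15 that did not pass (adjusted p = 0.144). The other members fell: the first averaged 6.499 ± 0.754 in D2 and 11.7 ± 1.23 in B6 ESCs (SD, n = 3 each), with a limma difference of -0.84 (adjusted p = 2.73e-06), and the second 2.82 ± 0.4701 in D2 and 5.15 ± 0.852 in B6 ESCs, with -0.85. Near Prdm14, a PR-domain factor of naive and germ cells, neighbouring members moved in opposite directions. One averaged 2.79 ± 0.161 in D2 and 1.27 ± 0.103 in B6 ESCs (SD, n = 3 each), with a difference of 1.08, and the next, under 1 kb away, 1.23 ± 0.182 in D2 and 1.91 ± 0.161 in B6 ESCs, with -0.60; they overlap the same P300 and POU5F1 regions, whose differences did not pass.

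Formative genes had 2 higher, 4 lower and 6 uncalled members of 12. The largest change lay in an intron of Fhl3, 47.4 kb downstream of the start of Pou3f1, a POU factor of formative cells. Its signals were 2.24, 2.396 and 2.36 in D2 and 9.84, 10.99 and 8.72 in B6 ESCs. Every B6 line was more than 3 times the D2 lines, and the difference was -2.03 ± 0.12 (SE, adjusted p = 1.04e-10), with P300 at -0.96 and POU5F1 at -0.70, both past the threshold. Another member 10.0 kb upstream of Pou3f1 averaged 1.83 ± 0.231 in D2 and 4.45 ± 0.624 in B6 ESCs (SD, n = 3 each), with a difference of -1.24. Nodal, a TGF-beta family ligand, had a member 7.82 kb upstream with 4.09, 3.82 and 4.28 in D2 and 6.08, 5.72 and 5.76 in B6 ESCs, a difference of -0.52 (adjusted p = 0.000845). The higher members lay 30.2 kb upstream of Dnmt3b, a de novo DNA methyltransferase, with 3.495 ± 0.886 in D2 and 2.1002 ± 0.0628 in B6 ESCs (SD, n = 3 each; difference 0.68, adjusted p = 0.00275), and 17.2 kb downstream of Wnt8a, a WNT ligand, with 5.46 ± 0.606 in D2 and 3.81 ± 0.597 in B6 ESCs (difference 0.51, adjusted p = 0.00373).

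LIF and FGF signalling genes had no higher member, 6 lower and 5 uncalled. At Lifr, the LIF receptor subunit, both members fell. The intronic one averaged 4.72 ± 0.534 in D2 and 9.06 ± 0.557 in B6 ESCs (SD, n = 3 each), with a difference of -0.93 (adjusted p = 1.19e-06) and a P300 difference of -1.02, at an adjusted p of 0.000118. Spry4, a feedback inhibitor of FGF receptor signalling, had a member 34.6 kb upstream with 4.48, 3.82 and 4.02 in D2 and 9.74, 9.29 and 8.06 in B6 ESCs. D2 lines were all below B6 lines, and the difference was -1.12 ± 0.11 (SE, adjusted p = 1.43e-07). Its neighbour, on the same P300 and POU5F1 regions, differed by -0.80. Of 3 members near Socs3, the inhibitor that LIF signalling induces, the one 22.2 kb downstream fell by 0.64 (adjusted p = 0.000464), while the other two, at -0.15 (adjusted p = 0.541) and -0.20 (adjusted p = 0.198), did not pass. A member near Mycn fell by 0.37 on the log2 scale, and that near Jak1, the kinase of the LIF receptor, differed by 0.05 (adjusted p = 0.697).

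After the transition to EpiLCs many of these regions were no longer listed as accessible. Of the 5196 members 2559 (49.2%) overlapped no EpiLC region, against 33.9% of all ESC regions, 17.5% of the class with TRIM28 and 45.0% of the class without any factor. In members without an EpiLC region the ESRRB-type motif occurred in 4.14% and the SOX core in 23.8%, against 1.74% and 17.7% of members with one. The octamer did not show this split, at 4.14% and 4.25%. The median GC content was 48.3% in members without an EpiLC region and 51.3% in members with one. The part of base composition in these shares was not tested. The regions were called separately in each state, so absence from the EpiLC table is no measured 0. Members were also chosen by ATAC and ChIP regions of ESCs, and the part of this choice in the absence was not tested.

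Where members could be followed, the lean towards lower signal in D2 was not seen in EpiLCs as it was in ESCs. The 1928 members matched to a single EpiLC region over at least 50% of both had 589 higher and 550 lower calls in D2 EpiLCs, that is 30.5% and 28.5%, against 25.6% and 32.6% of all EpiLC regions (58.2% called in all), and a median difference of 0.01. Differences beyond 2-fold were seen at 67 higher and 25 lower members, 4.77% against 8.25% of all EpiLC regions. In ESCs the same 1928 had 290 higher and 713 lower calls and a median of -0.13. The change of the strain difference between states, EpiLC minus ESC, was tested as an interaction. It passed at 937 members, 48.6% against 45.2% of the 59294 matched regions. In members 660 were above 0 and 277 below (34.2% and 14.4%), with a median of 0.17, whereas over all matched regions 19.4% were above and 25.8% below, with a median of -0.05. Matched regions without any of the 3 factors also leaned above 0, with 19.9% above, 10.7% below and a median of 0.06. Their EpiLC calls were 24.1% higher and 22.8% lower in D2. In the class with TRIM28 19.6% of interactions were above 0 and 43.1% below. Beyond 2-fold 175 members were above and 32 below, 10.7% of members against 4.98% of matched regions. With each cell line as a block the counts were 627 and 253. Both tables were normalized separately, which an interaction cancels only as far as the scaling does not depend on the strain.

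**Figure D4:**
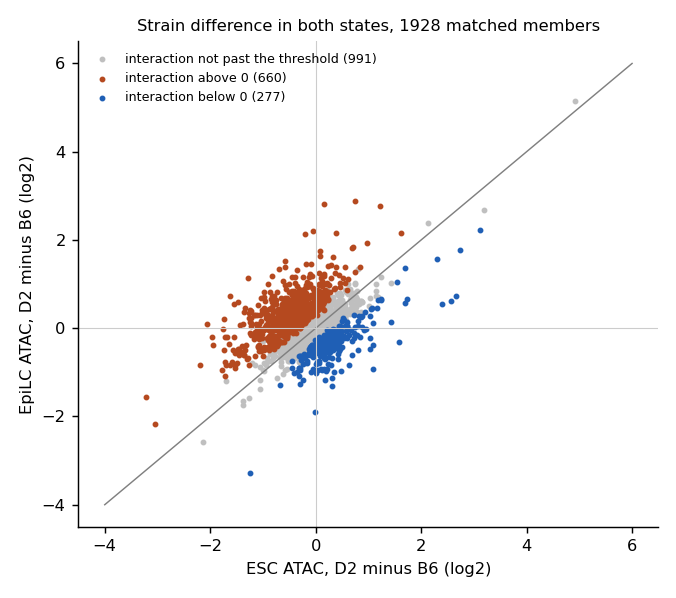
D2 minus B6 log2 ATAC difference in ESCs (horizontal axis) against EpiLCs (vertical axis) for 1928 matched members, with the line of equal difference; colours mark the interaction test. The 660 members with an interaction above 0 lie above the line and the 277 with one below 0 lie under it.

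Near Capn2, a calcium-dependent protease, a member was higher in D2 than B6 EpiLCs and lower in D2 than B6 ESCs. EpiLC signals were 4.56, 4.46 and 4.75 in D2 and 3.17, 2.73 and 2.38 in B6, and ESC signals were 3.66, 2.35 and 4.37 in D2 and 13.2, 10.005 and 9.04 in B6. The strains did not overlap in either state and changed places, with an interaction of 2.35 ± 0.25 (SE, adjusted p = 4.90e-07). The member 220.7 kb from Ralyl, an RNA-binding protein gene, had EpiLC signals of 4.84, 4.77 and 5.36 in D2 and 1.16, 1.004 and 1.03 in B6, and ESC signals of 6.24, 5.86 and 4.63 in D2 and 5.93, 6.52 and 6.59 in B6. The lines lay far apart in EpiLCs and overlapped in ESCs, and the interaction was 2.32 ± 0.18 (SE, adjusted p = 5.21e-11). Near Dlg1, a membrane scaffold protein, the reverse was seen, with EpiLC signals of 2.398, 2.27 and 2.34 in D2 and 4.75, 4.46 and 4.29 in B6, and ESC signals of 8.63, 7.68 and 10.6 in D2 and 4.21, 3.26 and 5.13 in B6. Its interaction was -2.00 ± 0.19 (SE, adjusted p = 3.61e-09). In an intron of Lrp1b, a receptor of the LDL family, ESC signals were 6.63, 5.15 and 5.597 in D2 and 1.37, 0.447 and 1.12 in B6, with an interaction of -1.94 ± 0.37 (SE, adjusted p = 0.000516). The other extreme members, near Gm10324, Gm10767, Unc93a2 and 1190007I07Rik, hold 95.8%, 83.4%, 74.3% and 28.2% repeated stretches, and their interactions are uncertain. Some strong ESC differences stayed: the member near Inpp4a had EpiLC signals of 4.05, 3.67 and 3.704 in D2 and 0.512, 0.502 and 0.517 in B6, with an interaction that did not pass (-0.52 ± 0.28 (SE, adjusted p = 0.128)).

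Matched members were less open in EpiLCs than in ESCs, relative to other regions. The state change is described without a test, as the log2 ratio, per line, of EpiLC over ESC share of reads per kb, centred on the median of all 59294 matched regions. Its median over the 39 lines had a median of -0.18 across members, against 0.01 over all matched regions, -0.06 in the class with TRIM28, and 0.02 in the classes with TRIM28 only and with none of the 3 factors. Beyond 2-fold 160 members were lower in EpiLCs and 20 were higher (8.30% and 1.04%, against 8.87% and 0.355% of the class with TRIM28 and 3.54% and 0.605% of all matched regions). In 233 members (12.1%) all 39 lines were below 0, against 15.6% of the class with TRIM28 and 6.64% of all matched regions. In 54 members (2.80%) all were above, against 7.34% and 5.43%. The members' median was -0.11 to -0.06 in the 3 D2 lines and -0.33 to -0.29 in the 3 B6 lines, without overlap, and -0.38 (BXD68) to 0.04 (BXD74) in the BXD lines. These values leave out the 2559 members that had no EpiLC region. Members were chosen by ATAC and ChIP regions of ESCs, which favours regions that are more open in ESCs. The part of this choice in the state change was not tested.

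**Figure D5:**
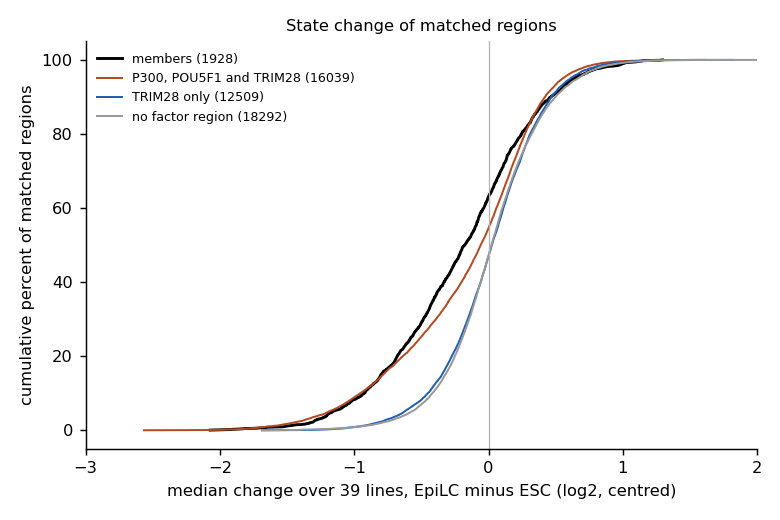
Cumulative percent of matched regions (vertical axis) by median state change over 39 lines, EpiLC minus ESC on a centred log2 scale (horizontal axis), for 1928 members and 3 other classes. The curve of members lies left of the classes without P300 and POU5F1 over most of its height and meets them near the top, and the class with all 3 factors runs close to it below about -1.

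The members with the lowest state changes were open in every D2 and B6 ESC line. The member far upstream of Cdh8, a cadherin gene, had EpiLC signals of 2.32, 2.71 and 3.63 in D2 and 3.17, 3.23 and 3.57 in B6, and ESC signals of 17.8, 16.02 and 12.4 in D2 and 15.4, 15.9 and 13.1 in B6. Its median state change was -2.07 and all 39 lines were below 0. In an intron of Abcb5, an ABC transporter gene, EpiLC signals were 2.28, 1.88 and 2.63 in D2 and 1.82, 2.29 and 1.65 in B6, and ESC signals were 14.6, 12.8 and 11.5 in D2 and 11.6, 12.997 and 10.96 in B6, and the median change -1.92. The member in the Esrrb intron had EpiLC signals of 1.85, 2.41 and 2.91 in D2 and 3.21, 2.23 and 2.33 in B6, and a median change of -1.19, below 0 in all 39 lines. No strain difference was called there in either state. Opposite to these, the member in the Akap8 region (Akap8 encodes an anchoring protein of protein kinase A) had EpiLC signals of 14.4, 15.4 and 14.3 in D2 and 22.03, 22.3 and 19.7 in B6, against ESC signals of 3.75, 3.95 and 5.42 in D2 and 7.301, 5.36 and 7.33 in B6. Its change was 1.29 and above 0 in all 39 lines. Fads3, a fatty acid desaturase family gene, and Tti1, a chaperone cofactor of PI3K-related kinases, had members with changes of 1.28 and 1.27, also above 0 in every line. The members near Dnah7a and Dynlt1c, at -1.98 and -2.01, hold 61.0% and 83.6% repeated stretches.

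Across the 33 BXD lines the members varied more than the same regions did within a parental strain. The median SD of log2 signal was 0.35 over BXD lines and 0.15 within D2 and B6, against 0.31 and 0.14 over all regions. BXD lines are different genotypes with 1 library each and fewer reads than the parents, so their spread also holds counting error, and its part was not tested. An SD above 1 was seen at 50 members (0.962%), against 0.731% of the class with P300, POU5F1 and TRIM28, 1.92% of regions without any factor, 5.48% of regions with TRIM28 only and 2.20% of all regions. With a pseudocount of 1 the members' count was 5. In members more than 2-fold higher in D2 a median of 16 of 33 BXD lines lay nearer to D2 than to B6, and in those more than 2-fold lower 23 did. Over all regions called beyond 2-fold, in both directions, the median was 18. BXD lines also stood lower at members as a whole, with a median margin over all regions of 0.10, against 0.17 in D2 and 0.24 in B6. The part of this in the counts was not tested. In EpiLCs the median SD of matched members was 0.30. The rank correlation between a member's ESC and EpiLC signal across the 33 lines had a median rho of 0.15 in members, against 0.17 over all matched regions, as a description, and rho was above 0.5 at 6.59% and 12.5%. In the 138 matched members more than 2-fold different in ESCs the median rho was 0.33.

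Near Inpp4a the lowest, median and highest BXD signals were 0.204, 0.616 and 5.16, with 14 lines on the D2 side, and the plot of single members shows a gap between the lines. Near Parp2 they were 0.123, 2.27 and 5.44, with 22 on the D2 side. Near Dlgap4 they were 0.581, 2.16 and 6.18, with 22 on the D2 side, and the values were spread without such a gap. The Esrrb member stayed within 8.02 and 15.3 around a median of 12.4. Whole chromosomes shifted in some lines. Over all ESC regions, taken against the BXD median of each region, the chromosome 11 median was raised by 0.28 in BXD81, 0.28 in BXD84, 0.34 in BXD99 and 0.33 in BXD161, and that of X by 0.71 in BXD74 and 0.69 in BXD86 on the log2 scale. With the 157 members on X left out the median SD over BXD lines was 0.3502.

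F1 lines were more open than the midpoint of their parents at many members. Against the mean of D2 and B6, in the table that holds the F1 lines, 846 members were higher and 130 lower (limma, adjusted p under 0.05), that is 16.3% and 2.50%. Of the 241241 regions of that F1 table, 4.86% were higher and 3.32% lower (8.18% in all), and of the ESC regions used above 8.65% and 4.44%. Beyond 2-fold 8 members were higher and none lower, 0.154% against 0.353%. The median difference of members was 0.11, and 0.09 against the midpoint of linear signals. The class with TRIM28 was close to the members: 16.7% of its 24362 regions were higher and 2.06% lower, with a median difference of 0.10. Regions with TRIM28 only had 5.49% higher and 6.48% lower, and regions without any of the 3 factors 4.98% and 5.58%. At 475 members (9.14%) every F1 line lay above all 6 parental lines, against 5.26% of all ESC regions, and at 50 (0.962%) every F1 line lay below them, against 2.49%. Of the 846, 344 lay above all 6. Among the 453 members with a strain difference beyond 2-fold, 1 had all F1 lines above the parents, and their median was 0.20 above the log2 midpoint but 0.03 above the linear one. Near Klf5, a Kruppel-like factor of naive cells, F1 lines exceeded the midpoint by 0.68 ± 0.11 (SE, adjusted p = 0.000127), and near Fhl3 they lay below it, by -0.62 ± 0.11 (SE, adjusted p = 0.000471). Counts depend on the F1 lines: without line F116 they were 345 higher and 53 lower, without F117 687 and 78, and without F124 417 and 73. Quantile normalization gave 648 higher and 130 lower members. The sample titles name no batch, so a batch difference between F1 and parental libraries cannot be told apart from the cross.

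RNA of the nearest gene changed in the direction of accessibility more often than against it, also outside these regions. Within 50 kb of a start, 85 members more than 2-fold higher in D2 ATAC lay near genes tested for RNA, which was higher in D2 ESCs at 24 and lower at 10. Among 144 members more than 2-fold lower, RNA was lower at 68 and higher at 16. Over all ESC regions of that kind 39.2% of 1706 had higher and 13.3% lower RNA, and 44.2% of 1850 had lower and 11.5% higher, where 37.6% of the 12694 genes tested were called. Inpp4a RNA averaged 9.07 ± 0.938 in D2 and 3.88 ± 0.554 in B6 ESCs (SD, n = 3 each), with a limma difference of 1.05 (adjusted p = 0.000536). Dlgap4 RNA averaged 34.5 ± 2.35 in D2 and 61.1 ± 0.5496 in B6 ESCs, and Fhl3 RNA 5.69 ± 0.875 and 12.2 ± 2.92. Both followed their member, with differences of -0.81 and -0.96. Spry4 went the other way, with RNA of 11.4 ± 4.62 in D2 and 2.98 ± 1.64 in B6 ESCs (limma difference 1.67, adjusted p = 0.00645), and Parp2 RNA did not differ past the threshold, at 0.01. Of the genes nearest to named members 18 had higher and 6 lower RNA in D2 ESCs, and in EpiLCs 22 and 12, where 57.5% of genes were called.

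Across the 33 BXD lines the ESC signal of 13 of 39 named members tracked the RNA of the nearest gene, 12 with a positive and 1 with a negative sign, at adjusted p under 0.05 for both Pearson's r and Spearman's rho (permutation tests, 100000 shuffles). Pairs of other members or other regions were not computed, and many named members were picked for large strain differences or interactions. The count is therefore no share of members in general. The member near Inpp4a was among the 13, but its lines formed separate open and closed sets, so no r over all lines is given for it. Fhl3 gave r = 0.76 (permutation p = 1e-05, adjusted 7.80e-05), rho = 0.79 (permutation p = 1e-05, adjusted 0.00013) and r = 0.78 without the 2 lines farthest from the median signal, where 1e-05 is the smallest p the shuffles can give. Parp2 gave r = 0.75 (permutation p = 1e-05, adjusted 7.80e-05), rho = 0.64 (permutation p = 0.00012, adjusted 0.00078) and r = 0.81 without the 2 lines farthest from the median signal, although its RNA did not pass the test between D2 and B6 ESCs. Grhl2, a grainyhead-like epithelial factor, was the negative pair, with r = -0.50 (permutation p = 0.00271, adjusted 0.0106), rho = -0.66 (permutation p = 8.00e-05, adjusted 0.000624) and r = -0.56 without the 2 lines farthest from the median signal, and its member was lower in D2 ESCs (-0.40) while its RNA was higher (1.43). For Nanog and Esrrb no test passed, with r = 0.15 (adjusted permutation p = 0.53) and r = 0.13 (adjusted permutation p = 0.584). The 1190007I07Rik and Gm10324 members, with r = 0.88 and 0.78, hold repeated stretches and are uncertain.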

How the data were processed

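ATAC-seq, P300 and POU5F1 ChIP-seq and RNA-seq tables were used, and TRIM28 regions for their positions only. The deposited values are a signal per region or gene, that is reads scaled by library, with F1 lines in a table of log2 values made by the authors. Tools listed in the submitters' processing notes, without roles, are MACS 1.4.2, HISAT2 2.0.5 and Bowtie 1.0.0, with mm10 as the build. The sources used here do not say how regions were merged over strains. The build mm10 is the B6 genome, and no correction for D2 variants was made here. Every ATAC value was a whole multiple of 1 read (100% within 0.01), which gave the depths, and edgeR on those reads called 26284 of all ESC regions higher in D2 and 28106 lower (limma 24885 and 27758).

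All members and all lists were chosen with earlier results of these data known. Fits ran over whole tables: limma 3.58.1 (trend, robust) in R 4.3.3 on log2(signal + 0.1) for ATAC and log2(signal + 1) for ChIP and RNA (genes with a mean of at least 0.5), Benjamini-Hochberg adjusted p under 0.05. Differences are D2 minus B6. edgeR 4.0.16 quasi-likelihood tests on recovered reads were an alternative. The fits were tested on simulated data. The ESC to EpiLC match needed overlap between single regions over 50% of both, and genes are those with the nearest transcription start. Named members were the 8 largest differences per direction without overlap of lines, the strongest member within 50 kb of each list gene, the 5 largest state changes and the 4 largest interactions per direction, and the 5 largest called in ATAC, P300 and POU5F1. Repeats were counted as 32-base stretches found again in mm10. Lines occur in both states, and deviations of the same line had correlations of -0.013 to 0.166, so the interaction was refitted with the line as a block. No value column lacked a sample (0). Results for 1 named member are not reported here.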

Additional observations from a re-analysis of the deposited data

Results flagged for a closer look

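At 20 of 30 named members with this test, 8 of which were named for the size of their interaction, the strain difference itself differed between EpiLCs and ESCs (limma interaction, adjusted p under 0.05, 3 D2 and 3 B6 lines in each state), a test that passed at 45.2% of all matched regions. Others were named for a large ESC strain difference or state change, which are not independent of the interaction. The count therefore cannot be set against that share. Of the named members near list genes reported here, those near Grhl2, Nodal and Fgf15 passed. Those near Esrrb, Klf2, Prdm14 and Lin28b did not. The interaction, the D2 minus B6 difference of EpiLCs minus that of ESCs on the log2 scale, was above 0 at 13: 2.65 near Gm10324, 2.43 near Gm10767, 2.35 near Capn2, 2.32 near Ralyl, 1.67 near Gm10031, 1.30 near Cdh2, 1.14 near Dynlt1c, 1.14 near Slc9a2, 0.88 near Cdc42ep3, 0.76 near Grhl2, 0.62 near Fgf15, 0.41 near Nodal and 0.39 near Tti1. It was below 0 at 7: -2.03 near Unc93a2, -2.00 near Dlg1, -1.94 near 1190007I07Rik, -1.94 near Lrp1b, -0.88 near Slc24a3, -0.43 near Fads3 and -0.31 near Tmem47. The members near Gm10324, Gm10767, Unc93a2, Dynlt1c, Tmem47 and 1190007I07Rik hold over 20% repeated stretches and are uncertain. The causes were not tested.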

How the results depend on the processing

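Every count and median of members kept its direction between higher and lower calls under the alternatives run, except some of EpiLCs, P300 and POU5F1. No named member reversed past the threshold. Counts of P300 and POU5F1 calls changed their lean without some single lines, as given above. Quantile normalization moved the median P300 difference of members from -0.03 to 0.006. The lean over all regions was less stable. Quantile normalization gave 27019 higher and 25766 lower of all ESC regions, against 24885 and 27758. For the interaction it gave 10786 above 0 and 10730 below, against 11506 and 15304. Leaving out the 25% of P300 regions with the lowest signal gave 152 higher and 211 lower members. In EpiLCs limma gave 589 higher and 550 lower calls, edgeR 669 and 477, a match by any overlap 668 and 677, and leaving out the lowest 25% of regions 441 and 495, so no direction is read from them. With a pseudocount of 1, 5 members instead of 50 had a BXD SD above 1. State changes more than 2-fold higher numbered 40 with a match by any overlap and 13 in parental lines only, against 20. The causes were not tested. Leaving out 1 library at a time gave 757 to 1066 higher and 1542 to 1869 lower members in ESC ATAC, 514 to 600 and 488 to 530 in EpiLC ATAC, 62 to 630 and 37 to 724 for P300, and 56 to 381 and 90 to 200 for POU5F1. It gave 551 to 649 and 226 to 286 for the interaction, 345 to 687 and 53 to 78 for F1, and for RNA of nearest genes 12 to 18 and 6 to 7 in ESCs and 20 to 22 and 8 to 13 in EpiLCs. A strain left with 1 ChIP line is assumed to vary like the other.

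With the replicate number as a block, members higher and lower numbered 863 and 1715 in ESC ATAC, 576 and 541 in EpiLC ATAC, 279 and 378 for P300 and 324 and 216 for POU5F1 (where the labels repeat number 1 and line D55 was numbered 2 in accession order), and genes nearest to named members 14 and 6 in ESC RNA and 21 and 11 in EpiLC RNA. The numbers did not pair the samples: deviations of same-numbered D2 and B6 lines correlated at -0.391 to 0.103. ChIP depth is unknown.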

Other observations

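Shares of members called lower in D2 ESCs differed between chromosomes, as they did over all accessible regions. On chromosome 12 they were 42.7% of members (91 of 213), against 29.3% of all regions there, on chromosome 4 42.2% (177 of 419) against 28.5%, and on chromosome 5 40.7% (149 of 366) against 23.9%. On X they were 19.7% (31 of 157) against 14.9%, and 22.3% of members were higher, against 28.9%. On chromosome 3 they were 23.6% against 23.5%. On chromosome 14 they were 26.5% against 24.5%, and 33.3% of members were higher, against 26.2%. Chromosome 4 also held 43 members more than 2-fold lower in D2, beside 14 more than 2-fold higher. These are counts over neighbouring regions, which are not independent, and no test was run between chromosomes.

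Members within 1 kb of a transcription start were few (317), with 45 higher and 128 lower in D2 ESCs and a median log2 difference of -0.19, against 887 higher and 1683 lower and a median of -0.11 in the 4879 farther away. Members higher in D2 held the SOX core in 24.9% of central windows and had a median GC content of 46.8%, members lower in D2 held it in 18.2% with a GC content of 52%, and members not called held it in 20.9% with 49%. The SOX core is rich in A and T, and the part of base composition in these shares was not tested.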
